A study of Mus musculus with 6 samples.

Results

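The 9 loci described here are those of the mouse genes Prex1, Trio, Arap2, Inpp4b, Foxp1, Ep400, Ifngr1, Cacna1d and Spink2, each of which has at least 2 tunicamycin-only open regions inside its span or at most 100 kb away. The term tunicamycin-only was used of a region called in 3 of 3 libraries after tunicamycin and in 0 of 3 after DMSO, and DMSO-only in the reverse case. The genes were picked as examples from 141 of 21883 protein-coding genes with 2 or more such regions (0.644%), so the calls that chose them are given as a description and no test was made of them. Of 82993 regions in the whole data set, 321 lay at the 9 loci. The question asked of them was whether all regions of a locus or only a few differed between the groups.

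Chromatin accessibility had been measured by ATAC-seq, which tags accessible DNA with a transposase carrying adapters. The cells were haematopoietic stem cells (HSCs) sorted from the bone marrow of wild-type C57BL/6J mice. The sort gate was CD48-CD150+LSK, where LSK stands for cells that lack lineage markers and carry both Sca-1 and c-Kit, and about 5000 cells went into a library. There were 3 libraries from mice injected with DMSO and 3 from mice injected with Tunicamycin at 2 mg per kg, both into the peritoneum. Tunicamycin blocks N-linked glycosylation and so loads the endoplasmic reticulum with misfolded protein. The time between injection and sorting, the age of the mice, and whether libraries came from separate or pooled animals are not stated in the labels, so differences between libraries of a group may be technical.

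Each library is a list of peaks, 28501 to 62478 long on chromosomes 1 to 19, X and Y, and its read depth is unknown. The longest and the shortest list were both DMSO libraries, replicates 1 and 3, and the absence of a peak is no measure of how closed a site was. Peak strength is given as a percentile, the share of the peaks of the same list whose fold enrichment over background (the authors' value) was no higher. Among 15 HSC marker genes, 9 had a region called in all 6 libraries in the gene or within 1 kb, Hlf, Mecom, Procr, Kit and Runx1 among them, and 6 did not, among them Fgd5, Slamf1 (CD150), Ly6a (Sca-1), Hoxb5 and Tek. The counts were 1 of 10 for neutrophil and monocyte markers, 3 of 10 for lymphoid, 2 of 6 for macrophage, 4 of 8 for erythroid, 5 of 7 for megakaryocyte and 3 of 8 for stromal and endothelial markers, and 54.4% of all protein-coding genes had such a region. Since each library pools many cells, fewer cells in which a region is open cannot be told apart from less opening in each cell.

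The genes fall into groups by what they encode. Prex1, Trio, Arap2 and Inpp4b belong to signalling by small GTPases and phosphoinositides, membrane lipids that growth factor and chemokine receptors raise and that recruit regulators of the actin skeleton. These routes are known for their part in the homing and retention of HSCs in the marrow. Foxp1 and Ep400 encode nuclear proteins, a forkhead transcription factor and a chromatin remodeller. Ifngr1 and Cacna1d encode proteins of the cell surface, and Spink2 encodes a protease inhibitor. A gene is commonly served by a promoter at its start site and by distal elements within introns or between genes, and distal elements vary more between cell states than promoters do.

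Promoter sequences of 4 of the loci are shown because the calls at the start site differ between them, from open in all libraries (Prex1 and Ifngr1) through open in 5 of 6 (Arap2) to no call at all (Spink2). Each line gives the 250 bases upstream of a RefSeq start site in GRCm38.p6, the assembly that mm10 denotes, read 5′ to 3′ on the strand of the gene. Capitals mark matches to any of 13 motifs searched on both strands. The windows are chr2:166713833-166714082 (minus strand) for Prex1, chr5:62766178-62766427 (minus) for Arap2, chr10:19591699-19591948 (plus) for Ifngr1 and chr5:77211472-77211721 (minus) for the outermost listed start site of Spink2.
Prex1: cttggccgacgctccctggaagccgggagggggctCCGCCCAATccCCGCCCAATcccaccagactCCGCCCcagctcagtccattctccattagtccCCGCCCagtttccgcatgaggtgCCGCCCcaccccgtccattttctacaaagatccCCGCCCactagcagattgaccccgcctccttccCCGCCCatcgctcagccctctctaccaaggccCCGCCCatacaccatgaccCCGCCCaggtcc
Arap2: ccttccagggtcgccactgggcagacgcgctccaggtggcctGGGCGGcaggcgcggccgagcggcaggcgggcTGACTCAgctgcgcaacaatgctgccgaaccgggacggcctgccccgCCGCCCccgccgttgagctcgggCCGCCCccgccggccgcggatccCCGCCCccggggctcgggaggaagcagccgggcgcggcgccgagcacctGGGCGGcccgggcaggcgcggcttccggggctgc
Ifngr1: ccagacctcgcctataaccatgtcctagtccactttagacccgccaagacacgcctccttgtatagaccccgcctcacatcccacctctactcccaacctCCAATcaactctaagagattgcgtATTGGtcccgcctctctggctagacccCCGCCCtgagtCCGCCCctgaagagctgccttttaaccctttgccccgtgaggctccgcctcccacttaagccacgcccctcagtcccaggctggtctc
Spink2: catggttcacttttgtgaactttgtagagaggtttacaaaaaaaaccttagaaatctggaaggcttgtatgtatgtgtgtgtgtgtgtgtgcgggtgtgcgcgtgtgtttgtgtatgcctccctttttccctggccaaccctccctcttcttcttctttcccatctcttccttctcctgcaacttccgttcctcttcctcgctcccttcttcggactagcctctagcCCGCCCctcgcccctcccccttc

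The Prex1 window held 9 matches to the SP1 motif GGGCGG and 2 to the NF-Y motif CCAAT, each NF-Y match overlapping an SP1 match. Ifngr1 had 2 of each, Arap2 had 5 SP1 matches and 1 AP-1 match (TGANTCA), and Spink2 had 1 SP1 match. Over all 32851 upstream windows, 32.7% held the SP1 motif, 33.8% the NF-Y motif and 6.75% the AP-1 motif. None of the 14 windows of the 9 genes held the stress-response motifs ERSE, UPRE (TGACGTGG), CRE (TGACGTCA) or the amino acid response element (TGATGCAA), which 0.113%, 0.563%, 1.55% and 0.791% of all windows held. The further motifs without a match in the 14 windows were the E-box CACGTG, ETS (CCGGAAGT), RUNX (TGTGGT), forkhead (TGTTTAC), STAT (TTCCNGGAA) and the GATA factor motif AGATAA. The ERSE begins with the NF-Y motif, so matches to both can coincide. A match describes letters only and is not evidence of binding.

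At the 5 members with a start site region called in all 6 libraries the groups overlapped there, and no tunicamycin-only region overlapped a promoter window (250 bases before to 50 after a start site) of a member. A region called in all 6 libraries covered 5 of the 14 start site windows of the members, against 43.7% of such windows of all protein-coding genes. The 5 were those of Prex1, Trio, Inpp4b, Ep400 and Ifngr1. At Ifngr1 the region ranked at percentiles 89.8, 97.3 and 97.3 after DMSO and 97.4, 90.3 and 87.3 after tunicamycin (replicates 1, 2 and 3). At Ep400 it ranked at 85.5, 93.0 and 93.1 against 89.0, 95.4 and 93.5. The values also overlapped at Trio (88.2, 88.5 and 85.8 against 89.9, 83.4 and 89.4), Inpp4b (91.5, 80.6 and 83.0 against 87.6, 88.1 and 98.2) and Prex1 (59.8, 67.6 and 69.5 against 68.3, 73.1 and 56.3). The Arap2 start site lacked a call in DMSO replicate 2 and ranked at 21.9 to 53.2 elsewhere. Of 3 listed start sites of Foxp1, the innermost was likewise called in all libraries but DMSO replicate 2. It ranked at 19.4 and 4.76 in DMSO replicates 1 and 3 and at 43.8, 39.2 and 21.7 after tunicamycin. Without a value for DMSO replicate 2, nothing is read from the order of these values. The next start site of Foxp1 was called in 3 libraries and the outermost in tunicamycin replicate 2 alone. None of the 6 libraries had a call at either start site of Cacna1d or at the 3 of Spink2. Of the 567 such regions in the data set, 2.65% overlapped a promoter window of any gene.

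Only a few regions of each locus separated the groups. Of the 321 regions, 22 (6.85%) were tunicamycin-only, against 0.683% of all regions, and 1 was DMSO-only, against 0.0976%. Since the genes were chosen for such regions, nothing is read from that excess. Another 63 regions (19.6%, against 25.1% of all regions) were called in all 6 libraries, 44 (13.7%, against 9.74%) in every tunicamycin library plus 2 of the DMSO ones, 26 (8.10%, against 4.76%) in every tunicamycin library plus 1 DMSO library, and 85 (26.5%, against 32.4%) in a single library. The DMSO library was replicate 1 in 22 of those 26, a pattern of 4.39% of all regions. More tunicamycin than DMSO libraries called 173 regions (53.9%, against 39.4% of all), the same number called 96 (29.9%, against 38.3%) and more DMSO libraries called 52 (16.2%, against 22.3%). Leaving out both kinds of separated region, 50.7% of 298 regions had more tunicamycin calls, against 39.1% of all such regions. The loci were still chosen by calls of the same libraries, so nothing is read from that difference either. The count of 22 became 44 without DMSO replicate 1, where absence from the other DMSO libraries suffices, and 6 when every list was limited to its 28501 peaks of highest −log10 q, of which 3 were among the 22.

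**Figure D1:**
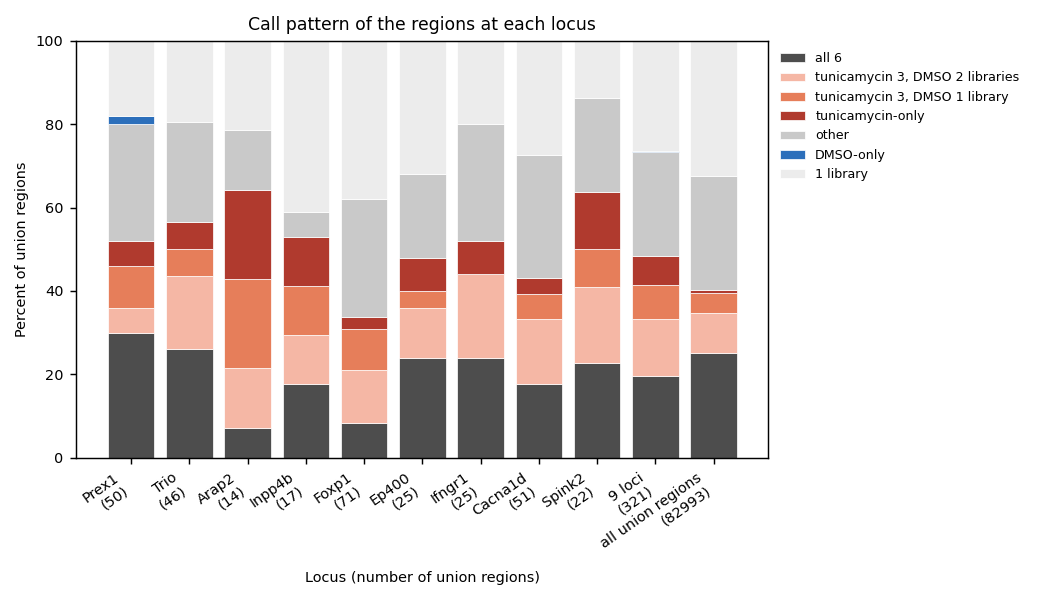
Stacked bars give the percent of union regions at each locus, at the 9 loci together and over all regions (numbers of regions in parentheses) by call pattern: called in all 6 libraries, in all 3 tunicamycin libraries with 2, 1 or 0 (tunicamycin-only) DMSO libraries, DMSO-only, in 1 library, or another pattern. The tunicamycin-only part runs from 2.82% at Foxp1 to 21.4% at Arap2 and is 0.683% over all regions.

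Each locus had 2 or 3 tunicamycin-only regions, the trait for which the genes were chosen. Their share at a locus therefore largely reflects how many regions it had, from 14 to 71, and is given as a description. It was highest at Arap2 (3 of 14 regions, 21.4%), Spink2 (3 of 22, 13.6%) and Inpp4b (2 of 17, 11.8%). Ep400 and Ifngr1 followed with 2 of 25 each (8.0%), then Trio (3 of 46, 6.52%), Prex1 (3 of 50, 6.0%), Cacna1d (2 of 51, 3.92%) and Foxp1 (2 of 71, 2.82%). The median gene span was 164 kb for the members, from 11.2 kb for Spink2 to 792 kb for Inpp4b. It was 19.5 kb for the 141 genes with 2 or more tunicamycin-only regions and 17.2 kb for all protein-coding genes. The median number of regions at a gene was 25 for the members, 25 for those 141 genes and 14 for all genes. Apart from the members, 5 genes had 3 tunicamycin-only regions. Hopx and Rest flank Spink2 and share its 3 regions, and Sbk1, Lat and Spns1 lie together on chromosome 7. Genes with 1 such region, just under the number that defines the set, numbered 1684.

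Position and strength of the 22 regions varied. Of them 14 lay inside a gene span, 4 upstream and 4 downstream, and the member was the nearest gene of 21. Distance to the nearest start site of the member ran from 0.371 to 272 kb, with a median of 67.4 kb, and was at most 10 kb for 2 regions. They were 252 to 822 bp wide with a median of 378 bp, against a median of 761 bp for the 63 regions called in all libraries. Over the whole data set the medians were much the same, 376 bp for tunicamycin-only regions and 775 bp for regions called in all libraries. The median percentile of the 22 was 24.9, 54.1 and 28.1 in tunicamycin replicates 1, 2 and 3, where the 567 tunicamycin-only regions of the data set had 26.6, 36.9 and 30.0. Tunicamycin replicate 2, the longest of the tunicamycin lists, gave the highest percentile for 14 of the 22. All 3 percentiles were above 50 for 3 regions, at Arap2, Ep400 and Cacna1d, and all 3 below 50 for 9. Those 3 regions were also the ones of the 22 that stayed tunicamycin-only with lists of one length (4.23% of all 567 did), and 11 of the 22 stayed so with peaks of q at most 1e-05 (47.3% of all 567). The region farthest from its gene lay 87.2 kb from Ifngr1, and the nearest one beyond the limit of 100 kb lay 270 kb from Ifngr1, at percentiles of 27.7 to 43.4.

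**Figure D2:**
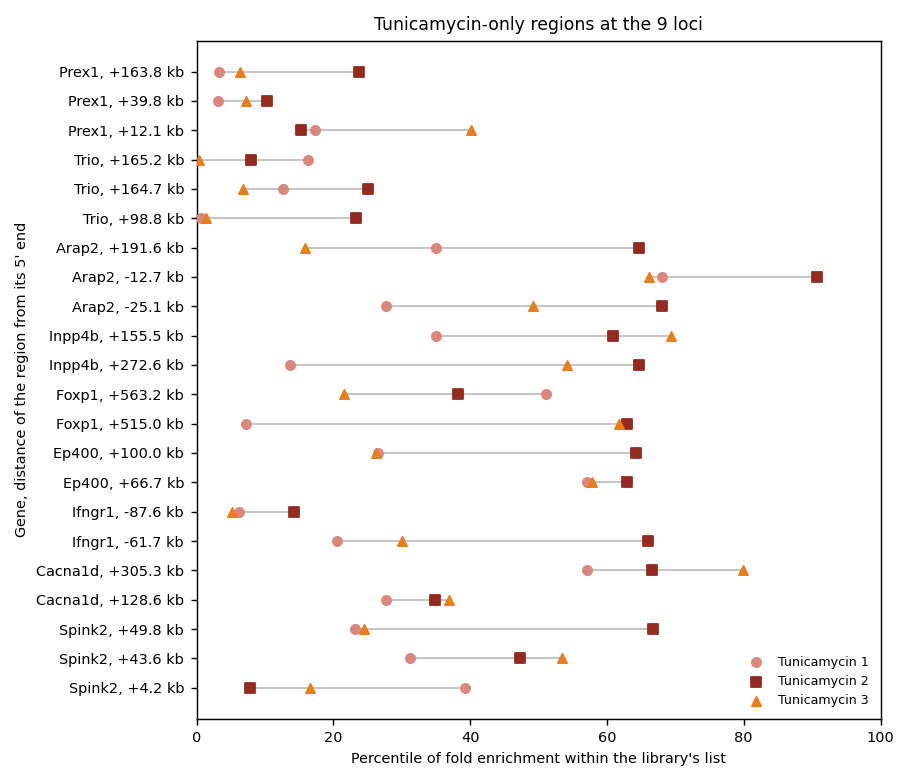
Each row is a tunicamycin-only region, named by its gene and its distance from the 5′ end of the gene in kb (negative is upstream), and the symbols give its percentile by fold enrichment in tunicamycin replicates 1, 2 and 3, joined by a line. The regions of Prex1 and Trio sit at or below 40.1, and the Arap2 region 12.7 kb upstream reaches 66.1 to 90.8.

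Prex1 encodes an exchange factor that activates the GTPase Rac downstream of phosphoinositides and G protein-coupled receptors. Its span (mm10, chromosome 2, 166566345 to 166713832, minus strand) and flanks held 50 regions, and all 6 libraries called 15. The tunicamycin-only region nearest to the start site lay inside the gene, 11.8 kb from it (166701450 to 166702006), with percentiles of 17.3, 15.3 and 40.1 and fold enrichments of 4.02, 3.83 and 5.09 in tunicamycin replicates 1, 2 and 3. A second lay inside the gene 39.6 kb from the start site (166673951 to 166674202; percentiles 3.16, 10.2 and 7.14), and the last lay 16.2 kb downstream of the gene (166549871 to 166550122; 3.29, 23.7 and 6.38). The latter was 0.318 kb from a region that every library but DMSO replicate 3 called. Prex1 was the only member with a DMSO-only region. It lay between the tunicamycin-only region at 39.6 kb and the gene end, 50.7 kb from the start site (166662749 to 166663132), at percentiles of 5.73, 11.3 and 19.4 in DMSO replicates 1, 2 and 3. DMSO replicate 1 was the sole DMSO library to call a further 5 regions that every tunicamycin library called.

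Trio encodes a large exchange factor for Rac and related GTPases. All 3 of its tunicamycin-only regions lay inside the gene (chromosome 15, 27730649 to 28025848, minus strand), and none ranked above percentile 25.0. A pair 0.173 kb apart stood about 165 kb from the start site: the first (27860542 to 27860831) had percentiles of 16.2, 7.92 and 0.272, and the second (27861005 to 27861389) of 12.6, 25.0 and 6.82. The pair may be read as 1 element, since joining peaks across gaps of up to 200 bp, a setting added after the data were seen, merged it. The remaining region, 98.6 kb from the start site (27926948 to 27927230), had percentiles of 0.648, 23.2 and 1.34 and was 0.161 kb from a region called in DMSO replicate 1 and tunicamycin replicates 1 and 3. That setting therefore left 20 tunicamycin-only regions at the 9 loci.

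Trio was also the one member with regions called in all 6 libraries whose groups stood apart. Of the 63 such regions at the 9 loci, 2 had every tunicamycin percentile above every DMSO percentile (7.42% of all such regions did) and 0 the reverse (1.59%). One lay inside Trio, 102 kb from its 5′ end and 2.99 kb from the last tunicamycin-only region (27923489 to 27923957). It ranked at 44.9, 43.7 and 48.2 after DMSO and at 56.1, 61.6 and 48.2 after tunicamycin, with replicate 3 of both groups equal to the printed digit. The other lay 66.2 kb downstream, inside the span of Otulinl (27664023 to 27664468), at 53.9, 60.0 and 51.5 against 64.3, 66.8 and 79.6.

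Arap2 encodes a GTPase-activating protein for Arf6 that binds phosphoinositides. Its locus was the sparsest, with 14 regions, and the 1 that all 6 libraries called lay 92.0 kb upstream, inside the span of Dthd1. The strongest tunicamycin-only region of the set lay 12.5 kb upstream of the gene (chromosome 5, 62778673 to 62779174), with percentiles of 68.1, 90.8 and 66.1 and fold enrichments of 6.81, 10.4 and 6.79. Further upstream, at 24.9 kb, a region closer to Dthd1 (62791055 to 62791559) reached 27.7, 68.1 and 49.2. On the far side, 27.6 kb downstream (62574360 to 62574819), the values were 35.0, 64.7 and 15.9, and the nearest other region was 73.1 kb away. DMSO replicates 1, 2 and 3 called 9, 3 and 4 of the 14 regions, and tunicamycin replicates 10, 11 and 10. Arap2 was the 1 locus of 9 at which these shares did not overlap (64.3%, 21.4% and 28.6% against 71.4%, 78.6% and 71.4%). Without its 3 tunicamycin-only regions the DMSO libraries still called 9, 3 and 4 and the tunicamycin libraries 7, 8 and 7, which overlap. Another 3 of the 14 had DMSO replicate 1 as their sole DMSO call beside 3 tunicamycin calls.

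Inpp4b encodes a phosphatase that breaks down a phosphoinositide made downstream of growth factor receptors. It has the longest span (chromosome 8, 81342266 to 82134312, plus strand) and few regions, 17, and 3 of them had calls throughout: the promoter and a pair about 415 and 426 kb into the gene. Both tunicamycin-only regions lay between these, 155 kb (81497370 to 81498166) and 272 kb (81614724 to 81615018) from the start site. The first ranked at 35.0, 60.9 and 69.3 and the second at 13.6, 64.7 and 54.2, with tunicamycin replicate 1 lowest in each. The second was isolated, with no other region within 87.1 kb. Tunicamycin replicate 2 called 16 of the 17 regions and the other tunicamycin libraries 9 each, as many as DMSO replicate 1.

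**Figure D3:**
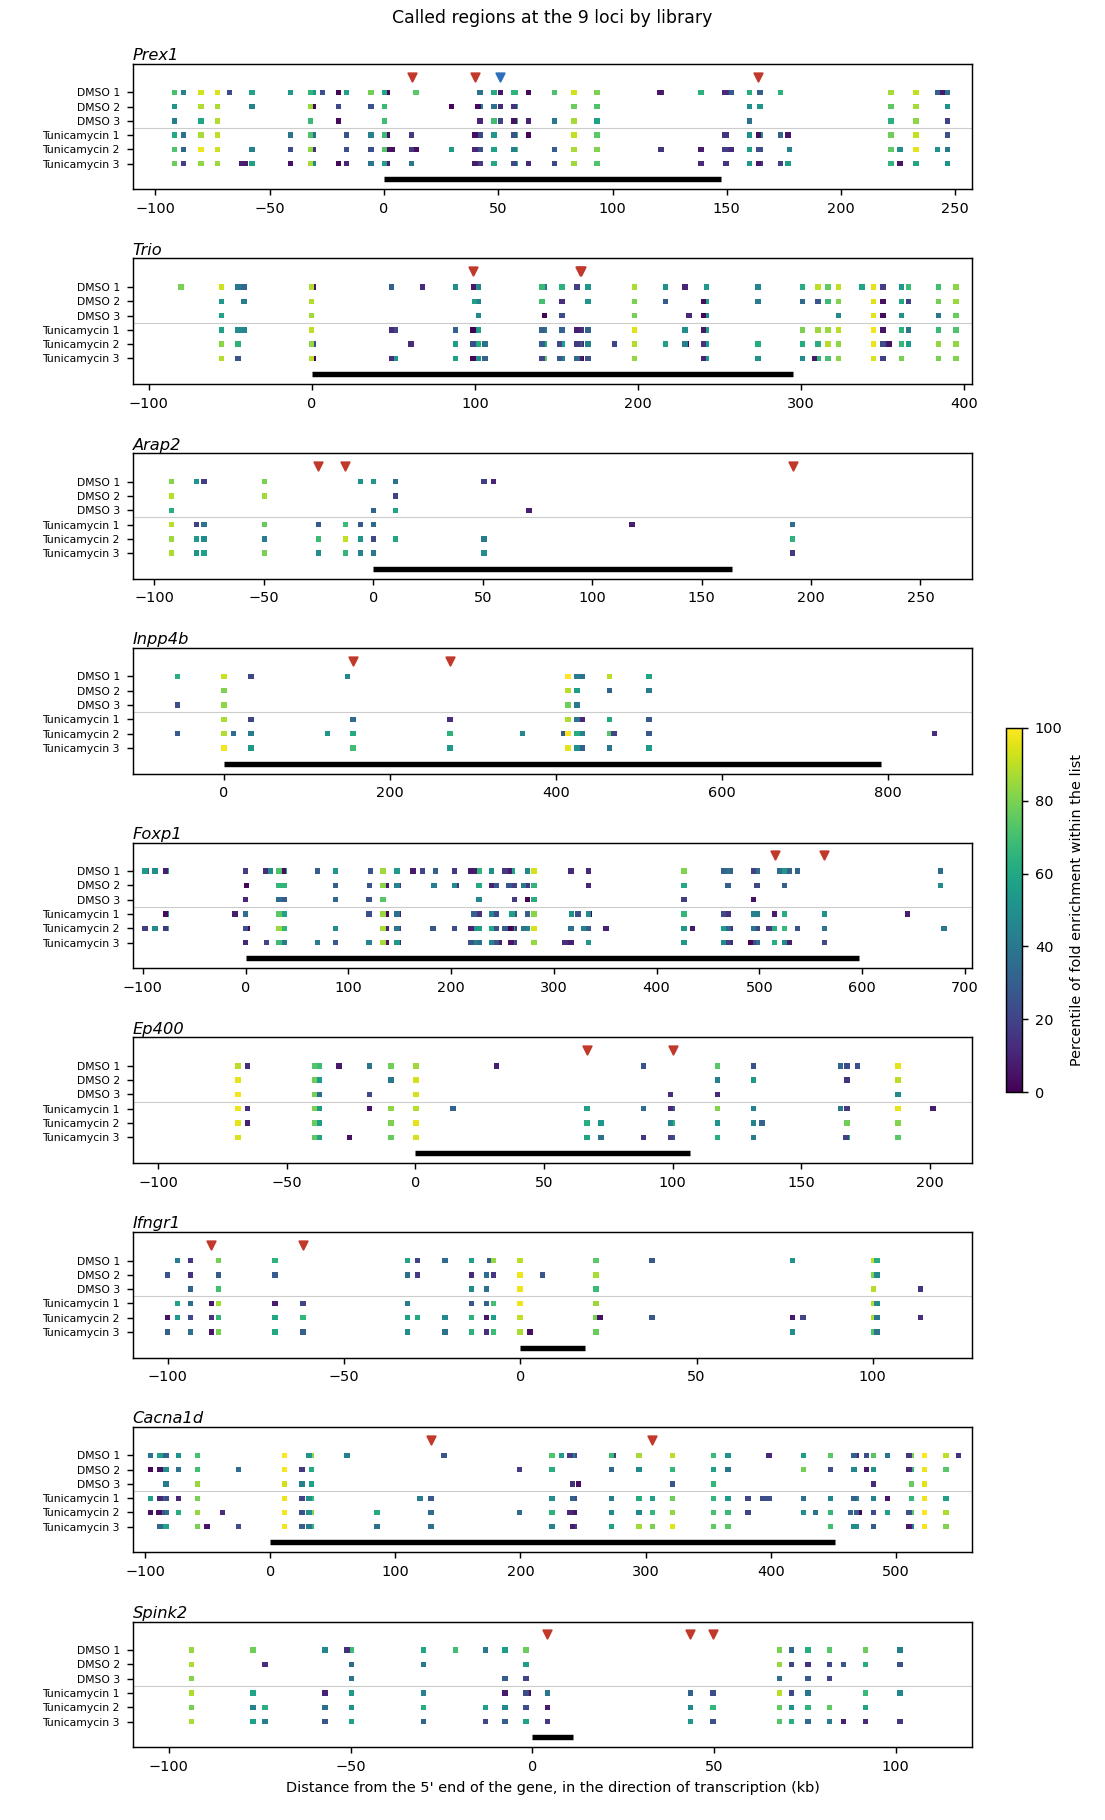
Each panel maps 1 locus by distance from the 5′ end of the gene in the direction of transcription (kb), with the gene span as a black bar and 1 row for each of the 6 libraries. Squares are called regions coloured by their percentile within the list, red triangles mark tunicamycin-only regions and the blue triangle the DMSO-only region at Prex1. Columns of 6 squares are the 63 regions called throughout, and the 22 red triangles stand over columns with squares in the 3 tunicamycin rows alone.

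Foxp1 encodes a forkhead transcription factor that acts mostly as a repressor and is needed in B cell development. It held the most regions, 71, with 62 of them inside the gene (chromosome 6, 98925342 to 99522746, minus strand). Both tunicamycin-only regions lay near the 3′ end, beyond the innermost start site, by 20.4 kb (99007525 to 99007946) and 68.6 kb (98959363 to 98959700). The first had percentiles of 7.15, 62.9 and 61.8, so that tunicamycin replicate 1 was far below the others, and the second of 51.1, 38.2 and 21.6. Of its regions, 27 were called in a single library (38.0%, against 41.2% at Inpp4b and 32.4% of all regions). More DMSO than tunicamycin libraries called 17 (23.9%, against 22.3% of all regions). Within the gene a region called in all 6 libraries and 227 kb from the 5′ end (99295433 to 99295900) had a mean percentile 22.1 points lower after tunicamycin, with overlapping groups, and one 32.6 kb from the 5′ end (99489804 to 99490416) a mean 18.5 points higher, also with overlap.

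Ep400 encodes the ATPase of the TIP60-EP400 complex, which exchanges histone variants and acetylates chromatin. Both of its tunicamycin-only regions lay in the gene (chromosome 5, 110664373 to 110770927, minus strand). The one 66.1 kb from the start site (110703860 to 110704585) had the most even values of the set, 57.2, 63.0 and 57.8, with fold enrichments of 5.92, 6.40 and 6.14. The other, 99.6 kb away near the 3′ end (110670794 to 110671152), ranked at 26.5, 64.2 and 26.2 and stood 0.488 kb from a region that DMSO replicate 3 shared with the tunicamycin libraries. The next gene, Ddx51, was 7.78 kb from it. Of the 25 regions at the locus, Ep400 was the nearest gene of 8.

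Ifngr1 encodes the ligand-binding chain of the interferon gamma receptor, through which that cytokine activates HSCs. Its tunicamycin-only regions lay far upstream of the gene (chromosome 10, 19591949 to 19610229, plus strand), with Ifngr1 still the nearest gene. At 61.5 kb (19530113 to 19530453) the percentiles were 20.5, 66.0 and 30.0. At 87.2 kb (19503910 to 19504731) they were 6.14, 14.2 and 5.20, although this region was the widest of the set at 822 bp. It stood 1.24 kb from a region called in all 6 libraries (19505974 to 19506734), whose mean percentile was 18.3 points higher after tunicamycin with overlapping groups. DMSO libraries called 16, 14 and 8 of the 25 regions and tunicamycin libraries 14, 22 and 17.

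Cacna1d encodes the pore-forming subunit of the L-type calcium channel. The tunicamycin-only regions were 168 kb (chromosome 14, 30185678 to 30185976) and 8.89 kb (30362374 to 30362744) from the nearer of its 2 listed start sites, both inside the gene. The first, with percentiles of 57.2, 66.6 and 79.9, had the same lowest value as the Ep400 region, below only that at Arap2 (66.1), and the second had 27.7, 34.9 and 36.8. Neither start site had a call, but a region 11.6 kb from the outer 5′ end (30479209 to 30479999) was called in all 6 libraries at a mean percentile of 97.6.

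Spink2 encodes a Kazal-type serine protease inhibitor, known from testis and from expression in primitive haematopoietic cells. It is the smallest gene of the set (chromosome 5, 77205106 to 77216258, minus strand), and the gene span held 1 region, which was tunicamycin-only. That region (77211842 to 77212314) lay 0.371 kb upstream of the outermost of the 3 listed start sites, outside the promoter window whose sequence is shown above. Its percentiles were 39.2, 7.76 and 16.6, so tunicamycin replicate 1 was the highest here. The other tunicamycin-only regions lay 5.80 kb from each other, 32.2 kb (77172545 to 77172863; 31.1, 47.2 and 53.4) and 38.4 kb (77166242 to 77166743; 23.2, 66.7 and 24.4) downstream of the gene, in the interval before Hopx. Each was the nearest region of the other.

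Some tunicamycin-only regions had close neighbours. Of the 22 tunicamycin-only regions, 5 had another region within 500 bp, including both regions of the Trio pair, each the neighbour of the other. The nearest region of 12 had at least 1 DMSO call, and that of 1, at Ifngr1, was called in all DMSO libraries. No shares over the 567 tunicamycin-only regions of the data set stand beside these counts, so they are a description only.

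Taken by its median, the strength of the regions that all libraries shared overlapped between the groups at each of the 9 loci, with the 2 regions at Trio described above as the single regions that stood apart. Over the 63 shared regions the median percentile was 77.0, 66.1 and 58.0 in DMSO replicates 1, 2 and 3 and 72.5, 77.2 and 73.1 in tunicamycin replicates. The DMSO mean was 67.0 ± 9.54 and the tunicamycin mean 74.3 ± 2.54 (SD, n = 3 each), a difference of 7.24 points. Over all 20810 regions called in all libraries the medians were 80.3, 71.0 and 62.5 against 75.1, 79.4 and 76.1. Without DMSO replicate 3, the shortest list, the difference at the 9 loci was −0.345 points, over a larger set of regions. These were the 97 called in every remaining library, with means of 63.7 after tunicamycin and 64.1 after DMSO. By locus the difference over regions called in all 6 libraries ran from 1.71 points at Prex1 (67.8 ± 5.59 against 66.1 ± 1.88, SD, n = 3 each) to 11.3 at Trio (76.5 ± 8.99 against 65.1 ± 13.7). At Ifngr1 it was 11.2 (77.9 ± 7.07 against 66.7 ± 11.1).

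**Figure D4:**
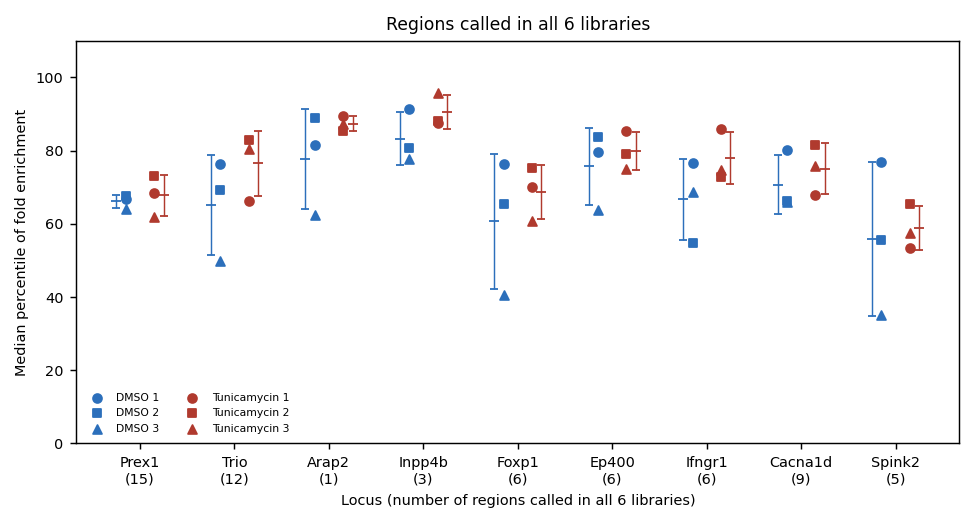
Points give, for each locus and library, the median percentile by fold enrichment of the regions called in all 6 libraries (their number in parentheses), with DMSO in blue and tunicamycin in red, and bars give the mean ± SD of 3 libraries. Red and blue points overlap at every locus, and DMSO replicate 3 is the lowest DMSO point at all loci but Ifngr1.

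Libraries differed in how many of the 321 regions they called. DMSO replicates 1, 2 and 3 called 215, 140 and 89 and tunicamycin replicates 194, 239 and 206. Of all regions in the data set they called 73.6%, 44.5% and 33.3% and 52.6%, 67.2% and 55.7%. In percent the DMSO mean was 46.1 ± 19.7 and the tunicamycin mean 66.4 ± 7.26 (SD, n = 3 each), with DMSO replicate 1 inside the tunicamycin range. Leaving out the separated regions, the counts were 214, 139 and 88 against 172, 217 and 184, which also overlap. With lists of one length the difference fell from 20.2 to 6.53 percentage points, over 189 regions merged anew from the shortened lists. Of the 321 regions as first merged, 188 kept a call, and the libraries called 96, 96 and 89 of these after DMSO and 107, 105 and 106 after tunicamycin, without overlap. Over all regions the shares with lists of one length were 62.9%, 62.2% and 61.6% against 62.5%, 62.9% and 62.5%, which overlap. The tunicamycin-only regions that chose the loci are part of these counts, so nothing is read from them.

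Genes related to the members were counted in the same way. In 8 lists of related genes, 14 of 138 genes (10.1%) had one in the gene or within 100 kb, against 8.34% of all protein-coding genes, and none had 2. With a share near that of all genes, those are named as a description only. Among 25 exchange factors and small GTPases these were Vav2, Tiam1, Arhgef2 and Fgd5, an HSC-restricted exchange factor whose region 50.8 kb away (chromosome 6, 92126836 to 92127436) ranked at 30.0 to 61.2. Phosphoinositide kinases and phosphatases contributed 4 of 22, among them Inpp4a, the paralogue of Inpp4b, Inpp5a and Pik3cg. The region 14.5 kb from Inpp5a ranked at 49.2 to 73.9. Of 15 Arf regulators only Acap2 had one, inside the gene, at 2.54 to 22.2. Stat3, a cytokine-activated transcription factor, and Irf8, an interferon-regulated one, did in the interferon gamma list (2 of 16), with values of 5.35 to 44.5 and 9.14 to 39.2, while Ifngr2, the partner chain of Ifngr1, did not. The forkhead list had Foxn2 (1 of 13, 90.9 kb away, at 52.9 to 69.3), the calcium channel list the auxiliary subunit gene Cacnb2 (1 of 17, at 27.6 to 47.3) and the protease inhibitor list Spink4 (1 of 13, 86.0 kb away). None of 17 genes of the TIP60-EP400 complex had one. DMSO-only regions lay at Foxj2 and Cacna1s, 2 of 138 genes, against 1.14% of all genes.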

How the data were processed

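Tn5-based ATAC-seq libraries (3 per group) were represented by 1 deposited peak list each, so peaks had been called by library. Per the submitters' processing notes, the build was mm10 and the tools included MACS2, Bowtie2 2.2.9, Trim Galore 0.4.4, featureCounts and Picard, without roles or settings. Read filtering, the shift for the transposase and the caller's cut-off were not stated there. The deposited columns hold a display score (10 times −log10 q), a fold enrichment (a ratio to background) and, for each peak, its p-value and q-value as −log10, which were used only to rank or filter peaks within a list.

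Peaks on chromosomes 1 to 19, X and Y (109 to 138 others per list left out) became 1 region when sharing 1 bp or more, and bedtools 2.31.1 gave the same 82993 regions. A library called a region if a peak of it lay there, and its strongest peak set the percentile. Regions in or within 100 kb of a gene span of RefSeq for GRCm38.p6 formed a locus. All 9 members matched that table and the RefSeq promoter table. Exons and introns were not distinguished. Sequences of the regions themselves were not used here. The members and lists were chosen with earlier results of these data known, and all comparisons of the groups are descriptions without a test. Named were all members, all separated regions, the strongest shared region of a locus, shared regions with groups apart, and related genes with a separated region, apart from items that are not reported here. Other shared regions at Foxp1, Ifngr1 and Cacna1d were named after their values were seen. The merging, calling and ranking were tested on simulated data. Python 3.11.15, NumPy 2.4.6, pandas 2.3.3 and matplotlib 3.10.9 were used.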

Additional observations from a re-analysis of the deposited data

How the results depend on the processing

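The count of tunicamycin-only regions, 22, was 6 with lists of one length (3 of them among the 22) and 14 when only regions inside the gene spans counted. It was 16 with peaks of q at most 1e-05, where 11 of the 22 stayed separated, and 18 to 21 under the other settings for cover, summits, distance, nearest gene and gaps. Leaving out 1 library eases the criterion and gave 23 to 44, the highest without DMSO replicate 1. The single DMSO-only region became 0 with lists of one length and 1 to 3 with a library left out. The difference in percentile of shared regions, 7.24 points, ran from −0.345 (without DMSO replicate 3) to 10.8 with a library left out. The shared regions were then chosen anew, 97 without DMSO replicate 3 against 63 with all libraries. The difference was 0.874 with lists of one length and 1.64 when ranks were taken among shared regions only. The difference in the share of regions called, 20.2 points, was 6.53 with lists of one length. At single loci 29 counts moved by over 1.5 times and 97 did not. With lists of one length only Foxp1 and Cacna1d had 2 tunicamycin-only regions. Neither of those at Foxp1 was among the 22, and at Cacna1d only the one 168 kb from a start site was. Arap2 and Ep400 then had 1, and Prex1, Trio, Inpp4b, Ifngr1 and Spink2 had 0. With peaks of q at most 1e-05, Prex1 and Ifngr1 had 0, Inpp4b had 1 and the other loci had 2 or 3. These counts include regions that were not among the 22. Of the 3 then at Foxp1, only the one 68.6 kb from the innermost start site was among them. No paired analysis was possible because the results come from no test. Depth is unknown, so weak regions may have been missed in the shorter lists, and this was not tested.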

Other observations

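The strongest shared region at several loci lay in or closest to a neighbouring gene. Near Cacna1d it lay 71.2 kb downstream, at Selenok, a selenoprotein gene of the endoplasmic reticulum (chromosome 14, 29967948 to 29968780), with percentiles of 99.2, 97.2 and 95.1 after DMSO and 97.4, 99.6 and 98.1 after tunicamycin. Near Ep400 it overlapped Hscb and Chek2, a DNA damage checkpoint kinase gene (chromosome 5, 110839343 to 110840481), at 89.7, 96.0 and 98.2 against 97.0, 95.9 and 94.4. Near Trio it lay in Otulinl (chromosome 15, 27680876 to 27682005), at 95.9, 95.3 and 95.6 against 98.1, 96.9 and 94.2, near Prex1 closest to Trp53rkb (mean percentile 89.7) and near Spink2 in Noa1 and Polr2b (84.7). At Inpp4b, Foxp1 and Ifngr1 it lay in the gene itself, at mean percentiles of 91.5, 83.4 and 93.2. These groups overlapped.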
